A study of Homo sapiens with 6 samples.

Results

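The family of miR-148 and miR-152 comprises 3 hairpins, MIR148A, MIR148B and MIR152, whose 3p arms carry the same seed. The 6 mature miRNAs of these hairpins were followed in m7G-RIP-seq of Caco-2 cells, among 2588 miRNAs listed and 800 that passed the filter on low counts. All 6 passed this filter, hsa-miR-152-5p only because of its input counts. The family was chosen by the loss of hsa-miR-148a-3p in m7G-RIP, so the values of that miRNA are a description without a test, while its 5 relatives show whether the loss holds for other loci and for the opposite arm. Caco-2 is an established colorectal adenocarcinoma line, grown here without any treatment or genetic change. One group was the input, RNA set aside before immunoprecipitation, and the other (m7G-RIP) was RNA of the same line bound by an antibody against N7-methylguanosine (m7G). Each group had 3 libraries. The protocol of the study decaps and heat-denatures the RNA first and gives input and eluate the same purification, and no library with a control antibody was analysed here.

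A hairpin precursor is cut into a duplex with a 5p and a 3p strand, of which usually one is loaded into Argonaute and persists while the other is degraded. The loaded strand finds its target mRNAs mainly through the seed, so miRNAs with the same seed share many predicted targets. In this family the 3p strands are the usual guides, and the transcripts attributed to them include that of the DNA methyltransferase DNMT1. miR-148a is known for its high level in digestive epithelia and liver. m7G is a methylated guanosine known from the mRNA cap and from tRNA and rRNA, and it can only be placed on a G.

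The sequences show how little separates the relatives. The mature sequences below are RefSeq entries on GRCh38.p14, written 5′ to 3′, with the seed (bases 2 to 8) in capitals. Of the 6 members, 5 were matched by name, and miR-148a-5p was not.
miR-148a-3p: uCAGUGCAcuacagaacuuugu
miR-148b-3p: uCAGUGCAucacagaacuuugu
miR-152-3p: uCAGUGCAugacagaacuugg
miR-148b-5p: aAGUUCUGuuauacacucaggc
miR-152-5p: aGGUUCUGugauacacuccgacu

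The 3p arms of all 3 hairpins have the seed CAGUGCA, and no other miRNA of the RefSeq table has it (3 in all). Counted from 1 at the 5′ end, miR-148a-3p and miR-148b-3p differ by 2 neighbouring substitutions, C9U and U10C. miR-148b-3p and miR-152-3p differ by C10G and U20G over the 21 bases they share in register, and miR-152-3p is 1 base shorter than the 22 bases of the others. The opposite arms have different seeds, AGUUCUG in miR-148b-5p and GGUUCUG in miR-152-5p.

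The hairpins are shown because each holds the opposite arms that behaved alike or differently in m7G-RIP. They are RefSeq sequences on GRCh38.p14, 5′ to 3′ on the strand of the gene, with the listed mature arms in capitals.
MIR148A, chr7:25949919-25949986, minus strand: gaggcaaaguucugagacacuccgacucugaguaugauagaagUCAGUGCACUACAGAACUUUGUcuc
MIR148B, chr12:54337216-54337314, plus strand: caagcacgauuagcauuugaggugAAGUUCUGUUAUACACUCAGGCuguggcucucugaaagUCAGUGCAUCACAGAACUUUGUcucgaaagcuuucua
MIR152, chr17:48037161-48037247, minus strand: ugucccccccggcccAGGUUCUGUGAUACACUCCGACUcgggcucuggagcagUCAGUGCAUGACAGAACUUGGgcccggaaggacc

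In GENCODE release 44 (GRCh38), MIR148B lies in an intron of COPZ1 and MIR152 in an intron of COPZ2, both on the strand of the host gene. These genes encode paralogous zeta subunits of the COPI coat, which carries vesicles from the Golgi. MIR148B also lies within the span of an unnamed long noncoding RNA, ENSG00000258344. MIR148A lies in an intron of another, ENSG00000270933, and in no protein-coding gene. No annotated exon of another gene overlaps any of the 3 hairpins.

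Total miRNA counts were 16466178 to 19628046 per input library and 1654102 to 3105129 per m7G-RIP library, with m7G-RIP replicate 3 the shallowest. Levels are given as CPM, counts scaled to a common library total after TMM scaling, edgeR's correction for library composition. At these depths 3 counts correspond to 0.235 to 0.262 CPM in the input and 0.676 to 1.11 CPM in m7G-RIP, and such floors cover counting error only. CPM describe a miRNA relative to the others in its library, so less binding of one miRNA and more recovery of the rest cannot be told apart. The labels do not say whether the replicates are separate cultures, so the p-values refer to these libraries only. The spread they are set against is estimated by edgeR partly from all tested miRNAs. All 7 epithelial or intestinal marker miRNAs examined were tested and summed to between 112703 and 120232 CPM in the input and 37891 to 47112 CPM in m7G-RIP. By the edgeR test given below, 6 of these were depleted and miR-200c-3p was enriched. Of all 800 tested miRNAs, 38.1% were depleted and 40.1% enriched. The log2 enrichments (m7G-RIP over input) ran down to -5.33 for miR-141-3p. miR-200c-3p (0.55) alone had a mean of 30410 CPM in m7G-RIP. Of 7 markers of other tissues, miR-122-5p of liver had 0 counts and miR-124-3p and miR-223-3p had at most 3, while miR-1-3p, known from muscle, had 617 to 684 CPM in the input and 567 to 862 CPM in m7G-RIP. miR-133a-3p, also known from muscle, had 55.1 to 67.8 CPM in the input and 1.94 to 9.58 CPM in m7G-RIP. With miR-142-3p and miR-451a, known from blood cells, it made 3 depleted of the 4 markers of other tissues that were tested. Their log2 enrichments were -3.48, -2.97 and -2.43, and miR-1-3p was not called (0.23). miR-142-3p and miR-451a averaged 0.94 and 0.88 CPM in m7G-RIP, near the floor of 3 counts, so their calls rest on few counts. Only their input counts carried them through the filter, which favours a call of depletion. All 7 markers of other tissues together summed to 686 to 764 CPM in the input and 580 to 868 CPM in m7G-RIP. Their part in the results was not tested.

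The family was a visible part of the Caco-2 miRNA population in the input and a small one in m7G-RIP. Its 6 members took 3.53%, 3.99% and 3.59% of all miRNA counts in input replicates 1, 2 and 3, against 0.484%, 0.383% and 0.472% in m7G-RIP replicates 1, 2 and 3. Most of this was miR-148a-3p, which was the 6th most abundant tested miRNA in the input and the 34th in m7G-RIP.

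miR-148a-3p had 48044, 58828 and 49160 CPM in the input and 2968, 2080 and 2301 CPM in m7G-RIP. The groups lay far apart. Its log2 enrichment (m7G-RIP over input) was -4.41, which is 21.2-fold lower, and it stood 52nd from the bottom of the 800 tested miRNAs. This is the value for which the family was examined.

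With edgeR and TMM, loss of miR-148a-3p was accompanied by loss of 4 of its 5 relatives, and the exception was hsa-miR-152-3p. Whether hsa-miR-152-3p was called, and in which direction, depended on the scaling, as given below. The 4 members called depleted were hsa-miR-148b-3p, hsa-miR-148a-5p, hsa-miR-148b-5p and hsa-miR-152-5p, that is, one other guide strand and the 5p arms of all 3 hairpins (p under 0.05 after Benjamini-Hochberg (BH) adjustment over all 800 miRNAs, quasi-likelihood test of edgeR). Only its input counts carried miR-152-5p through the filter, which favours a call of depletion, so its call adds little. None of the 5 relatives was enriched at this threshold. For comparison, 38.1% of all tested miRNAs were depleted and 40.1% enriched by the same rule, 305 and 321 miRNAs. This split depended on the scaling, with 198 depleted and 442 enriched when scaled by total counts and 227 and 418 by upper-quartile factors. In the same 4 relatives, but not in miR-152-3p, every m7G-RIP library lay below every input library, as in 40.8% of all tested miRNAs. The values below therefore turn on how far each member fell rather than on the count.

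**Figure D1:**
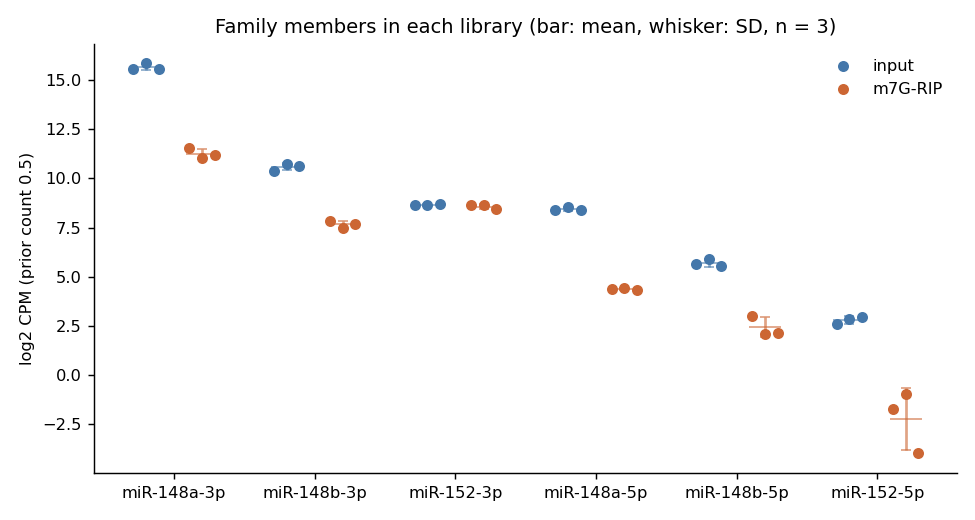
Level of each family member as log2 CPM with a prior count of 0.5 (vertical axis) in the 3 input libraries (blue) and 3 m7G-RIP libraries (orange), with mean and SD. Only for miR-152-3p do the groups overlap, while miR-152-5p has 1, 2 and 0 counts in m7G-RIP, so its orange points are set by the prior count.

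miR-148b-3p, the guide strand of the second hairpin, had 1345, 1720 and 1564 CPM in the input and 232, 179 and 204 CPM in m7G-RIP. Every m7G-RIP library was well below the lowest input library. Its log2 enrichment was -2.91 (SE 0.16, BH-adjusted p = 2.97e-09 in edgeR), or 7.52-fold lower. The fall was thus smaller than that of miR-148a-3p, which differs by 2 bases and was chosen for its loss.

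miR-152-3p had 397, 398 and 419 CPM in the input and 398, 396 and 344 CPM in m7G-RIP. The groups overlapped, and m7G-RIP replicate 3 was the lowest library. Its log2 enrichment was -0.09 (SE 0.14, 95% confidence interval -0.39 to 0.21, BH-adjusted p = 0.544 in edgeR), and the lower end of the interval lay above the estimates of the other 5 members. Its direction depended on the scaling. It was higher in m7G-RIP when scaled by total counts (log2 enrichment 1.00) or upper-quartile factors (0.73), and lower with DESeq2's size factors (-0.44), each past the threshold. The same choices moved the median of all tested miRNAs by 1.09, 0.82 and -0.34, respectively, so relative to that median miR-152-3p stayed near its place.

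The 5p arms, which are the minor strands here, were called depleted at all 3 loci, on very few counts at MIR152. miR-148a-5p had 341, 381 and 331 CPM in the input and 21.1, 21.6 and 20.3 CPM in m7G-RIP. Its libraries were tightly grouped, and its log2 enrichment of -4.06 (SE 0.17, BH-adjusted p = 2.47e-10 in edgeR) corresponds to a 16.7-fold lower level. The size depended on the scaling, with -2.97 by total counts and -3.24 by upper-quartile factors, and the call did not.

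miR-148b-5p had 50.2, 59.9 and 46.2 CPM in the input and 8.01, 4.28 and 4.42 CPM in m7G-RIP, on 33, 19 and 12 counts. Replicate 1 was the highest of the m7G-RIP libraries. Its log2 enrichment was -3.20 (SE 0.29, BH-adjusted p = 3.83e-07 in edgeR).

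miR-152-5p was the rarest member, with 70, 91 and 89 counts in the input and 1, 2 and 0 counts in m7G-RIP. Each m7G-RIP value was below the floor of 3 counts. The miRNA passed the filter only because of its input counts, which favours a call of depletion. Over the summed libraries, 3 against 250 counts, the scaled m7G-RIP level of miR-152-5p was 3.83% of the input level. The exact 95% counting interval was 0.784% to 11.3%. The fitted log2 enrichment of -4.64 (SE 0.63, BH-adjusted p = 1.82e-05 in edgeR) rests on these few counts and depends on the prior count.

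**Figure D2:**
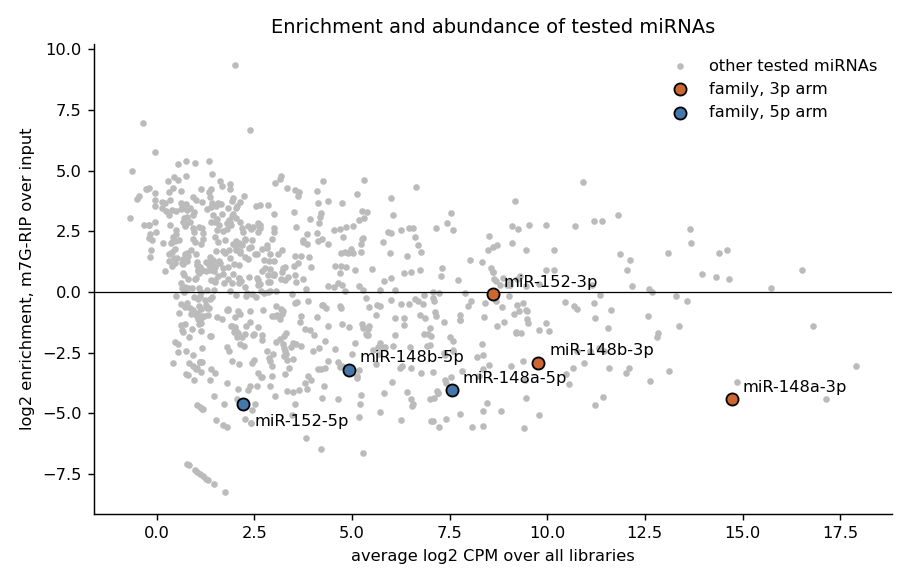
Log2 enrichment of m7G-RIP over input (vertical axis) against average log2 CPM (horizontal axis) for the 800 tested miRNAs (grey), with the family's 3p arms (orange) and 5p arms (blue). miR-152-3p lies at -0.09, while the other 5 members lie between -4.64 and -2.91.

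The order of levels within the family changed between input and m7G-RIP. In the input, mean levels ran from miR-148a-3p (52011 CPM ± 5931, SD, n = 3) through miR-148b-3p (1543 ± 188), miR-152-3p (404.5 ± 12.4), miR-148a-5p (351 ± 26) and miR-148b-5p (52.1 ± 7.03) to miR-152-5p (6.95 ± 0.912). In m7G-RIP, miR-152-3p (379 ± 30.4) stood above miR-148b-3p (205 ± 26.2), with miR-148a-3p still first (2450 ± 463) and miR-152-5p last (0.231 ± 0.225). No 2 neighbours in either order had overlapping libraries, the closest being miR-152-3p and miR-148a-5p in the input. The mature forms matched are 21 to 23 bases long and a read covers a whole one, so CPM were not divided by length. How well each sequence ligates to adaptors was not corrected for.

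A ratio of counts between members of the same library does not depend on scaling, so it gives the differences within the family directly. miR-152-3p had 0.295, 0.231 and 0.268 counts for each count of miR-148b-3p in the input, and 1.72, 2.21 and 1.68 in m7G-RIP. The rarer of these relatives thus became the more abundant in 3 of 3 m7G-RIP libraries. On the log2 scale, with 0.5 added to each count, the ratio was -1.92 ± 0.18 (SD, n = 3) in the input and 0.89 ± 0.22 (SD, n = 3) in m7G-RIP, a change of 2.82 (exact permutation test, two-sided, p = 0.1). With 3 libraries against 3, p = 0.1 is the smallest value this exact test can give, so no ratio could reach 0.05. Over the 4 ratios tested the adjusted p was 0.133 for this ratio (exact permutation test, Benjamini-Hochberg).

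Between the 5p arms of MIR148B and MIR148A the change was smaller. miR-148b-5p had 0.147, 0.157 and 0.139 counts for each count of miR-148a-5p in the input and 0.379, 0.198 and 0.218 in m7G-RIP, where replicate 1 stood out. The change was 0.81 on the log2 scale (exact permutation test, two-sided, p = 0.1, adjusted p = 0.133), and 0.53 without m7G-RIP replicate 1. The ratios that include miR-148a-3p, which chose the family, are given without a test. For each count of miR-148b-3p there were 35.7, 34.2 and 31.4 counts of miR-148a-3p in the input and 12.8, 11.6 and 11.3 in m7G-RIP. For each count of miR-148a-3p there were 0.00826, 0.00676 and 0.00852 counts of miR-152-3p in the input and 0.134, 0.190 and 0.150 in m7G-RIP. Among the counts of the 3 guide strands together, miR-152-3p made up 0.756% ± 0.0903 (SD, n = 3) in the input and 12.7% ± 1.99 (SD, n = 3) in m7G-RIP, while miR-148a-3p made up 96.4% ± 0.226 and 80.5% ± 2.09.

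**Figure D3:**
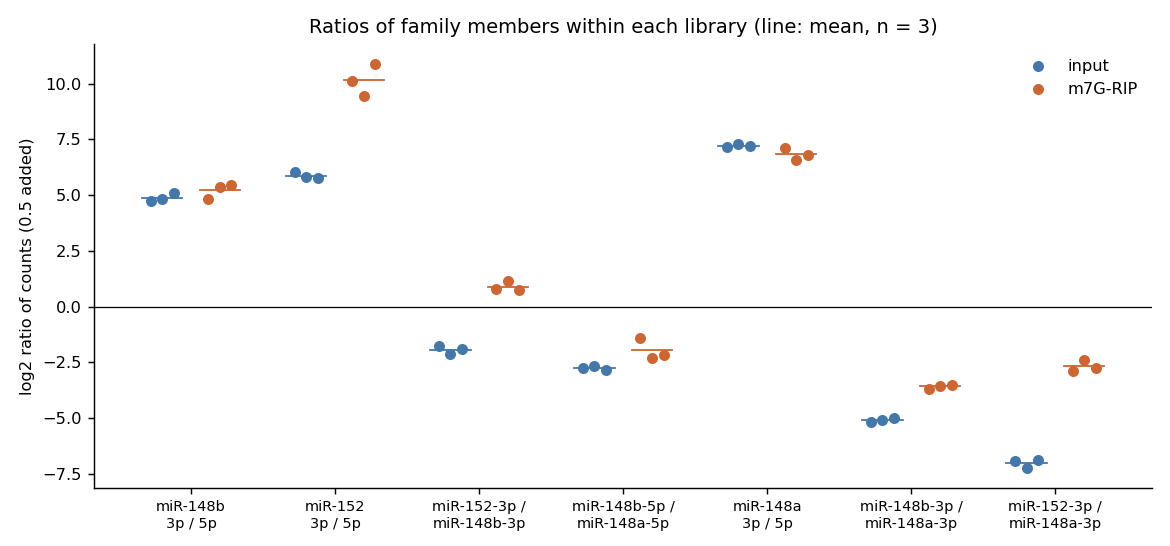
Log2 ratio of counts, with 0.5 added to each, between pairs of family members (horizontal axis) in each input library (blue) and m7G-RIP library (orange), lines marking means of 3. The miR-152-3p to miR-148b-3p ratio crosses from -1.92 to 0.89, and the mean 3p to 5p ratio of miR-152 is 5.86 in the input and 10.1 in m7G-RIP, while those of miR-148b and miR-148a stay within 1 log2 unit of the input.

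Both arms of MIR148A and MIR148B were low in m7G-RIP, whereas in MIR152 the 5p arm alone was. In MIR148B there were 26.8, 28.7 and 33.9 counts of the 3p arm for each of the 5p arm in the input and 28.9, 41.9 and 46.2 in m7G-RIP. The groups overlapped, with a change of 0.33 on the log2 scale (exact permutation test, two-sided, p = 0.3, adjusted p = 0.3). In MIR148A, given without a test, there were 0.00711, 0.00647 and 0.00674 counts of the 5p arm for each of the 3p arm in the input and 0.00711, 0.0104 and 0.00881 in m7G-RIP. In MIR152 there were 66.5, 55.8 and 53.9 counts of the 3p arm for each of the 5p arm in the input. In m7G-RIP the arms had 1639 against 1 count, 1757 against 2 and 934 against 0. The change was 4.28 on the log2 scale (exact permutation test, two-sided, p = 0.1, adjusted p = 0.133), and its size depends on the 0.5 added to so few 5p counts.

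Outside the family, 191 hairpins had both arms tested. In 57 of them (29.8%) both arms were depleted, as in MIR148B, and in 36 the arms were called in opposite directions. Among the 91 with a depleted 3p arm, the 5p arm was depleted in 62.6%. A 3p arm without a call occurred in 45, of which 9 had a depleted 5p arm as MIR152 did. The arms of these hairpins differed by a median of 2.27 in log2 enrichment. The difference in MIR152, 4.55, was met or exceeded in 19 of the 191, and it rests on the few 5p counts in m7G-RIP. That in MIR148A was 0.35, a description only, since its 3p arm chose the family.

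miRNAs of the miR-130/301/454 family have the seed AGUGCAA, which shares the run AGUGCA with that of miR-148a-3p shifted by 1 base. This list was chosen with earlier results of these data known. Their RefSeq sequences are shown, with the seed in capitals, because their values in m7G-RIP also differed widely between members.
miR-130b-3p: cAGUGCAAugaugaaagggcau
miR-454-3p: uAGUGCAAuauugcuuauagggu
miR-301a-3p: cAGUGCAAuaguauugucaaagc
miR-301b-3p: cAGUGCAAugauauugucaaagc

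Of the 5 miRNAs listed, 4 were tested, 2 were depleted and 0 enriched (quasi-likelihood test of edgeR, by which 38.1% and 40.1% of all tested miRNAs were). miR-130a-3p, at 13 counts or fewer in every library, did not pass the filter. miR-301a-3p passed only because of its input counts, which favours a call of depletion. miR-130b-3p had 133 to 165 CPM in the input and 142 to 160 CPM in m7G-RIP, a log2 enrichment of -0.02 (SE 0.16, BH-adjusted p = 0.898 in edgeR). miR-454-3p had 395 to 509 CPM and 291 to 433 CPM, a log2 enrichment of -0.39 (SE 0.17, BH-adjusted p = 0.0566 in edgeR). miR-301b-3p fell from 91.9 to 104 CPM in the input to 1.46 to 4.28 CPM in m7G-RIP, a log2 enrichment of -4.97 (SE 0.31, BH-adjusted p = 7.44e-09 in edgeR). miR-301a-3p had 4 counts in m7G-RIP against 1187 in the input, 1.07% of the input level after scaling with an exact 95% counting interval of 0.292% to 2.76%. With edgeR and TMM, both families thus included some miRNAs called depleted and some not called. This mix is no result about seeds, since 38.1% of all tested miRNAs were depleted and the list was chosen with results known. In DESeq2's Wald test, the kind of test the study used, miR-152-3p was called depleted too (log2 enrichment -0.44).

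m7G can only be present on guanosines, and the members differ in how many they have. miR-148a-3p, miR-148b-3p and miR-148b-5p each have 4 G bases, miR-152-5p has 5 and miR-152-3p has 6. In the related family, miR-301a-3p and miR-301b-3p have 5, miR-454-3p has 6 and miR-130b-3p has 7. That list was chosen with earlier results of these data known, and miR-301a-3p was tested only because of its input counts. Whether the number of G bases plays a part in these values was not tested. Of the 800 tested miRNAs, 714 had a mature sequence in the RefSeq table. Among these, the 85 with 4 G bases had a median log2 enrichment of -1.71 and 64.7% were depleted, and the 77 with 6 G bases had a median of -0.98 and 55.8% were depleted. Of the 43 with 11 G bases, 39 were enriched. miR-148b-3p thus lay below the median of miRNAs with as many G bases and miR-152-3p above its own. miR-148a-3p also lay below its median, but it was chosen for its loss. Across the 714 miRNAs Spearman's rho between log2 enrichment and the percentage of G was 0.497, given as a description over miRNAs that share the same 6 libraries. The medians did not rise evenly, since the 44 miRNAs with 2 G bases had a median of 0.77.

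**Figure D4:**
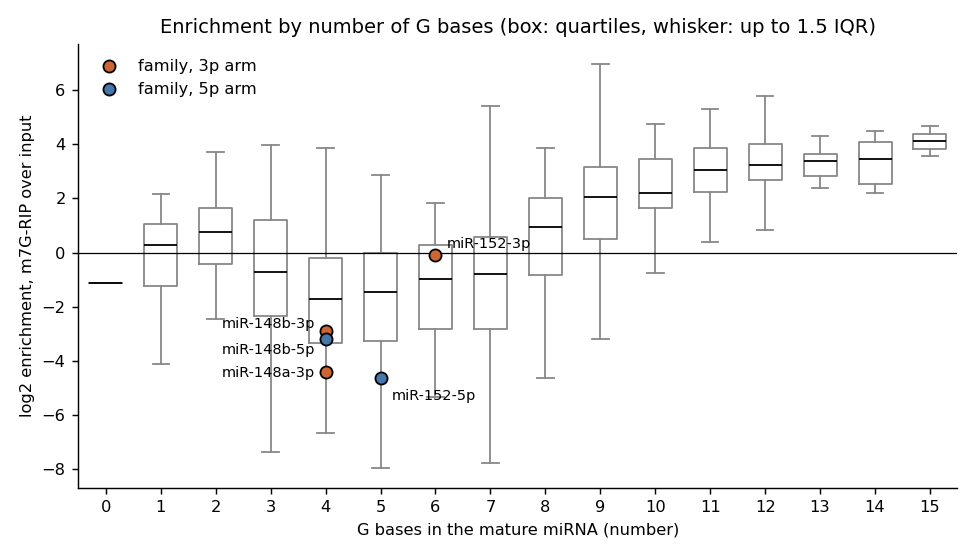
Log2 enrichment of m7G-RIP over input (vertical axis) by the number of G bases in the mature miRNA (horizontal axis) for 714 miRNAs, as boxes of the quartiles, with the matched family members as points (3p arms orange, 5p arms blue). miR-152-3p, with 6 G bases, lies above the median of its box, and the 4 other points lie below the medians of theirs. One of these is miR-148a-3p, which was chosen for its loss.

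The consecutive bases GG occur on the given strand in 74.1% of the 714 mature sequences. Among the guide strands of the family, GG is found in miR-152-3p and in neither miR-148a-3p nor miR-148b-3p, and in the related family it is found in miR-130b-3p and miR-454-3p and in neither miR-301a-3p nor miR-301b-3p. Of the 5p arms, miR-148b-5p holds GG and was depleted, unlike the guide strands with GG. miR-152-5p holds GG too, but it was tested only because of its input counts. miR-148a-5p had no matched sequence and was not placed. Over all 714, the 529 miRNAs with GG had a median log2 enrichment of 0.50 and 35.5% were depleted, against a median of -0.65 and 43.2% of the 185 without it. This feature was looked at after the values were seen and is a description only.

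The tested miRNAs nearest to each guide strand in log2 enrichment over the 3 same-numbered pairs of libraries were sought among 261 miRNAs outside the family whose average log2 CPM was 5 or more. For miR-148a-3p they were miR-21-5p (Euclidean distance 0.203), miR-429 (0.271) and miR-374a-5p (0.297), with log2 enrichments of -4.43, -4.36 and -4.38. For miR-148b-3p they were miR-372-3p (0.326), miR-302d-3p (0.431) and miR-425-5p (0.493), with log2 enrichments of -3.04, -3.13 and -2.86. For miR-152-3p they were miR-130b-3p (0.207), miR-26b-5p (0.223) and miR-584-5p (0.253), with log2 enrichments of -0.02, -0.11 and -0.14. Whether the shared numbers pair the libraries is not known, so the distances describe these libraries only.

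The order of the guide strands was the same under every scaling and filter tried, although the zero of the scale was not. A scaling factor moves all miRNAs of a library alike, so this order was nearly fixed in advance and lends no support. It also includes miR-148a-3p, which chose the family. miR-148b-3p had log2 enrichments from -3.26 with DESeq2's size factors to -1.81 with total counts, and it lay above miR-148a-3p and below miR-152-3p in each. Between the same scalings miR-148b-5p ranged from -3.56 to -2.13 and miR-152-5p from -4.98 to -3.61, all called depleted. The number of the 5 relatives called depleted was 4 with edgeR and TMM, and 5 with DESeq2's size factors and in its Wald test, where miR-152-3p was at -0.44 (BH-adjusted p = 8.94e-05 in the DESeq2 test). With the replicate number as a block, 4 were called and miR-152-3p was at -0.10 (BH-adjusted p = 0.643 in edgeR).

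**Figure D5:**
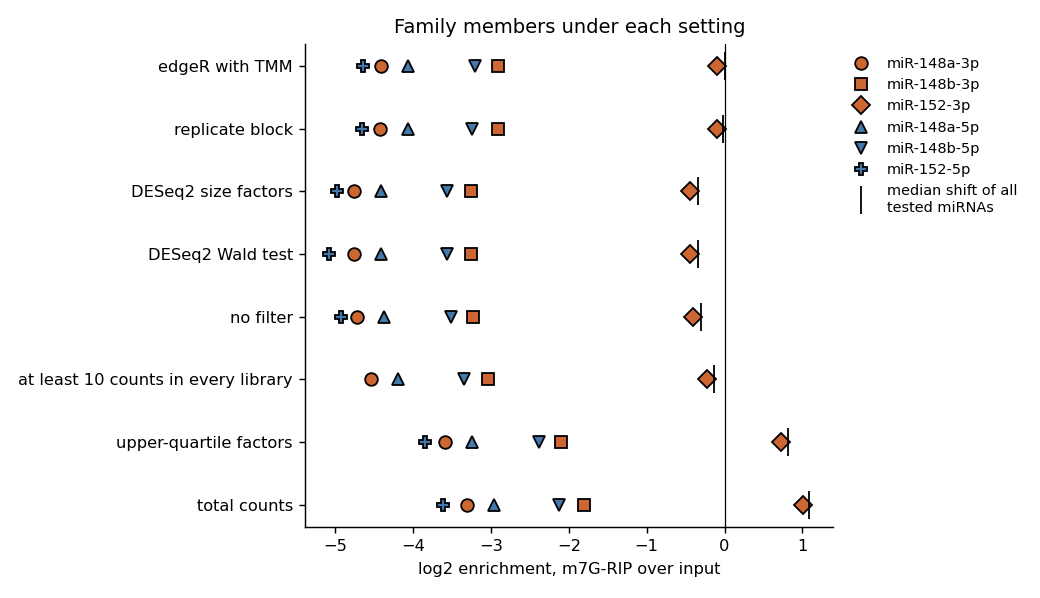
Log2 enrichment of the 6 family members (horizontal axis) under each scaling, test and filter (vertical axis), with the shift of the median of all tested miRNAs against edgeR with TMM as a vertical tick. The members move with the median, while miR-152-3p changes side, from -0.09 with TMM to 1.00 with total counts and -0.44 in DESeq2's Wald test, and miR-152-5p is missing where at least 10 counts were asked of every library.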

How the data were processed

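Small RNA of Caco-2 cells was sequenced from 3 input and 3 m7G-RIP libraries. The authors trimmed adaptors with Trimmomatic, mapped reads to GRCh38 and counted them on mature miRNAs of miRBase 22 with featureCounts. The methods name STAR as the aligner, while the submitters' processing notes name Bowtie2. What they deposited, and what was used here, are raw counts of reads on each miRNA, without normalization. Each matched family member has 1 locus in RefSeq, so its reads are not shared with an identical copy.

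Counts were filtered with filterByExpr (minimum count 10, minimum total 15), scaled by TMM and tested over all 800 miRNAs with edgeR 4.0.16 in R 4.3.3 (quasi-likelihood test, Benjamini-Hochberg). Standard errors are the absolute log2 enrichment over the square root of F. The edgeR fit was also run on simulated counts with most miRNAs unchanged and as many raised as lowered. Such counts cannot show how the scaling behaves where most miRNAs are called, as here. Count ratios were compared by exact permutation tests with scipy 1.17.1. The study itself evaluated enrichment with the Wald test of DESeq2. Here DESeq2 1.42.0 was an alternative, beside other scalings and filters, 1 or nothing added to counts, each library left out, and adjusted p under 0.01. Hairpin overlaps came from GENCODE release 44 (GRCh38).

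Named miRNAs were the 6 members, the miR-130/301/454 list, tissue markers and the 3 miRNAs nearest each guide strand. Members and lists were chosen with earlier results of these data known. Groups followed the library labels. Same-numbered libraries did not deviate together (correlations -0.0126 to 0.0338), which does not exclude that they are paired. No 2 libraries of a group were copies (chi-square per degree of freedom 17.5 to 105).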

Additional observations from a re-analysis of the deposited data

How the results depend on the processing

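The 4 relatives called depleted kept their direction and call in every alternative that could test them, and the 4 count ratios kept their direction. The scalings moved the median of all miRNAs by at most 1.09, less than any of these 4 enrichments. Under other scalings the direction was therefore nearly fixed in advance. For the ratios, a replicate block gives the same mean change by arithmetic. miR-152-5p was not tested where at least 10 counts were required in every library. miR-152-3p, -0.09 with TMM and not called, was 1.00 when scaled by total counts, 0.73 by upper-quartile factors, -0.44 by the size factors of DESeq2 and -0.44 in its Wald test, each past the threshold. These moved with the median of all miRNAs. With each library left out it was -0.28 to 0.0052, the last without input replicate 3, and never called. miR-148a-3p, -4.41 with TMM, was -3.31 by total counts and -3.59 by upper-quartile factors. Over all miRNAs, 305 were depleted and 321 enriched with TMM, 198 and 442 by total counts, and 175 and 182 of the 426 with at least 10 counts in every library. A replicate block changed no call among the relatives (miR-148b-3p -2.91, miR-148a-5p -4.06). Whether the numbers pair the libraries is not known. The m7G-RIP depth limits miR-152-5p most, with 3 counts in all, and it was tested only because of its input counts.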
